A study of Danio rerio with 6 samples.

Results

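The genes described are dnmt3ba and dnmt3ab, which encode de novo DNA methyltransferases, uhrf1, which serves maintenance of DNA methylation, and ezh2, which encodes a histone methyltransferase. All targets that the array annotation gives for these names were taken; each target stands for a transcript or sequenced cDNA and carries at most 3 probes. The annotation calls dnmt3ba and dnmt3ab by the older names dnmt7 and dnmt6, which RefSeq lists as synonyms. This gave 4 targets, 1 per gene, with 12 single probes, among 38489 targets, 113549 single probes and 15390 gene names on the array. The samples were whole brains of AB strain female zebrafish aged 12 months, 1 brain to an array. In the lead group (3 brains) embryos had been held in 100 ppb lead acetate until 72 hours after fertilization and then raised in clean water, and in the control group (3 brains) embryos had been handled alike at 0 ppb. Only females were analysed here, and no tissue from the exposure period was among the samples.

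A methyl group on cytosine in CpG dinucleotides is set by enzymes with separate tasks. De novo methyltransferases of the DNMT3 family write it on unmethylated DNA, and DNMT1 copies it to the new strand after replication. UHRF1 recognises DNA that is methylated on one strand and brings DNMT1 to it, so both are much used in dividing cells. EZH2 is the catalytic subunit of Polycomb repressive complex 2 (PRC2), which methylates histone H3 at repressed developmental genes, and it too is abundant in proliferating progenitors. In zebrafish the mammalian DNMT3A gene has the 2 counterparts dnmt3aa and dnmt3ab, and DNMT3B is represented by dnmt3ba and a cluster of dnmt3bb genes. The adult zebrafish brain keeps dividing radial glia along its ventricles, beside a large majority of neurons that no longer divide.

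The comparison asks whether lead in early development is followed by other levels of these transcripts in the aged female brain. Each of the 4 members had a higher mean intensity in lead brains, by 0.77 log2 for dnmt3ba, 0.48 for ezh2, 0.41 for uhrf1 and 0.32 for dnmt3ab. In each of them the lowest lead brain lay above the highest control brain, which held for lead above control in 5.74% of all targets (3.75% had every lead brain below). None passed the adjusted threshold (adjusted p = 0.958 for each in limma, where 0% of all targets passed). At an unadjusted p under 0.05 stood 3 of the 4, against 2.57% of all targets in that direction, 1.83% in the other and 4.41% in either, and dnmt3ab did not. That count was 1 without control replicate 3, 1 without lead replicate 1 and 1 without lead replicate 2, and it was also 1 when the median of the single probes stood in for the deposited target value. The members were chosen with results of these data known, so their shared direction is a description and not a test. The median change over all targets was 0.00, and 50.5% of them were higher in lead brains.

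**Figure D1:**
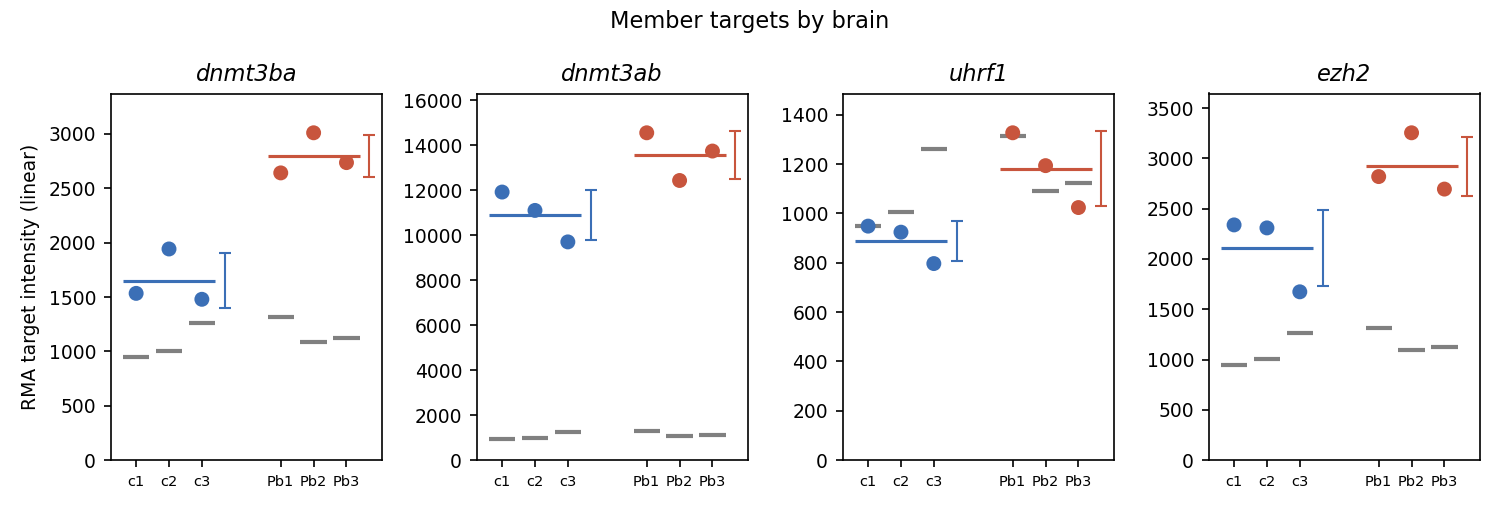
RMA target intensity on a linear scale (y axis, from 0) in each control (c, blue) and lead (Pb, red) brain for the 4 members. Coloured lines are group means, bars the SD over 3 brains, and grey marks show the background line of that array. No lead point of a member falls to the highest control point, and the uhrf1 points lie at the grey marks while those of dnmt3ab lie far above them.

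Array medians over all targets lay between 2100.5 and 2211. Background was taken on each array as the level under which 95% of its random control probes fell, which ranged from 948 to 1312. All 6 images carry the same scan number, and their names end in 10, 11 and 12 for controls and in 7, 8 and 9 for lead brains. What these end numbers stand for is not stated, and whatever they record cannot be told apart from treatment. No pair of arrays held identical values. Markers of neurons were above background on every array for all 7 measured genes. Their summed intensities lay from 188688 to 197194 in the control group and from 191819 to 204543 in the lead group. The 5 measured radial glia markers were also above background on every array, and 4 of them were higher in lead brains (median 0.17). Their sums lay from 105321 to 137557 in the control group and from 115798 to 147625 in the lead group. Red cell markers were lower in all 9 measured genes in lead brains (median −1.09). For 7 of the 9 the unadjusted p in limma was under 0.05, against 1.83% of all targets in that direction. Their sums lay between 105557 and 118464 in the control group and between 48328 and 100056 in the lead group, and their part in the results was not tested. Control replicate 1 stood apart by hormone genes of the pituitary, with an intensity of 32324 for smtlb where the other arrays lay between 235 and 338. Results for the members without that brain are given below.

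The target of dnmt3ba (OTTDART00000025175, chromosome 8, 17150104 to 17175039, on an assembly that is not given in the sources used here) showed the largest difference of the 4. Its intensities were 1533, 1942 and 1479 in the control brains and 2641, 3009.8 and 2736 in the lead brains. The 2 groups were separated by a gap of 0.44 log2, from control replicate 2 to lead replicate 1. The mean was 1651 ± 253 (SD, n = 3) in controls and 2795 ± 192 (SD, n = 3) in lead brains, a 1.70-fold difference with a 95% interval of 1.33 to 2.18. In limma the change was 0.77 ± 0.15 (SE) with an unadjusted p of 0.00150, the 26th smallest of all targets, and an adjusted p of 0.958. All 6 values lay above the background line. The authors' deposited table of 94 altered targets, out of 38489, names this target DNMT3B, the only member of the 4 in that table. It gives a log2 ratio of 0.767 and a p-value of 0.00477, with adjustment not stated. An ordinary linear model on the same 6 arrays gave an unadjusted p of 0.00477, so the entry is not separate evidence.

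Its 3 probes gave like differences. Probe 591 read 1533, 1932 and 1486 in controls and 2596, 3009.8 and 2783 in lead brains, a change of 0.77 ± 0.17. Probe 3341 read 2482, 3661 and 2788 in controls and 5034, 5370.4 and 4357 in lead brains, a change of 0.74 ± 0.20. Probe 1635 was above background only on the array of lead replicate 2 and differed by 0.77 ± 0.24. For each of the 3 probes every lead brain lay above every control brain. Over the 4 members this held for 8 of the 12 probes, against 5.4% of all single probes (3.62% with every lead brain below), and 5 of the 12 had an unadjusted p under 0.05, against 2.49% of all probes higher, 1.79% lower and 4.28% in either direction; 0% passed adjustment in limma. Single probes of one target share the RNA of the same brains and are not replicates.

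A further target carries only the name of the human gene DNMT3B and shares the UniGene cluster, chromosome and mapping markers of the dnmt3ba target (TC258806, Zv7 chromosome 8, 21799850 to 21806024). It was looked up after the values of dnmt3ba were known. Its intensities were 1637, 2154 and 1994 in controls and 1947, 2838 and 2744 in lead brains. Lead replicate 1 lay below 2 of the control brains here, whereas for dnmt3ba it lay above all of them. The change was 0.37 ± 0.19 with a 95% interval of −0.09 to 0.83 (unadjusted p = 0.0994, adjusted p = 0.958 in limma). Its probes differed from each other, at 0.69 ± 0.28, 0.37 ± 0.21 and 0.15 ± 0.19.

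**Figure D2:**
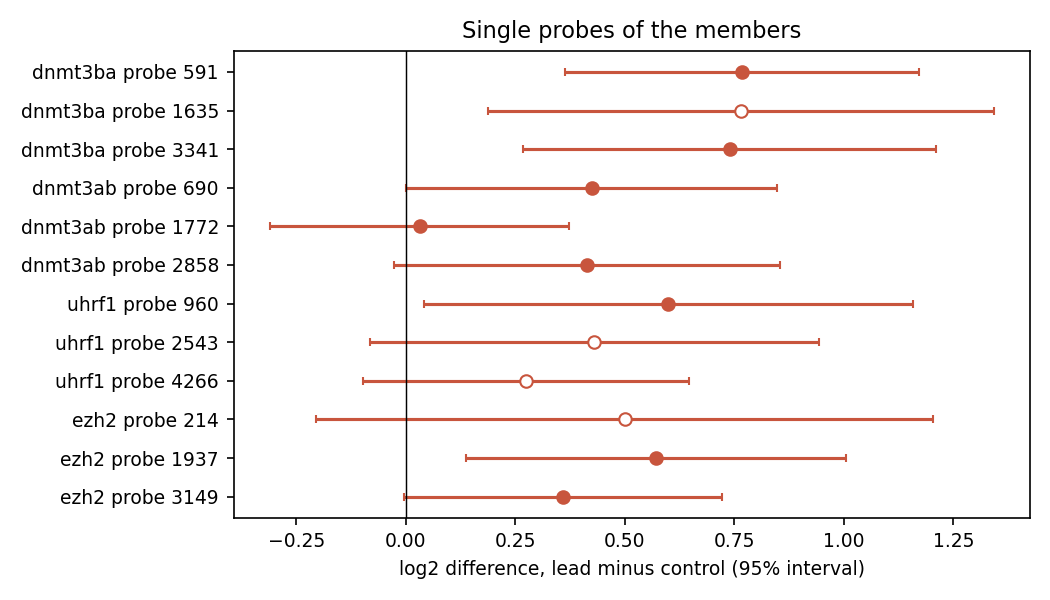
Change of each single probe of the members, lead minus control on the log2 scale (x axis), with its 95% interval from limma over 3 brains per group. Filled points lay above background on all 6 arrays and open points did not; the 12 points are all above 0, from 0.03 for dnmt3ab probe 1772 to 0.77 for 2 probes of dnmt3ba.

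The other de novo enzyme, dnmt3ab (OTTDART00000025713, chromosome 17, 29064899 to 29112563), had a target far above background on every array. Intensities were 11914, 11098 and 9699 in controls and 14548, 12428 and 13736 in lead brains. The groups did not overlap, but the gap between control replicate 1 and lead replicate 2 was only 0.06 log2. Means were 10904 ± 1120.2 (SD, n = 3) and 13571 ± 1069 (SD, n = 3), and the change of 0.32 ± 0.14 had a 95% interval from −0.01 to 0.65 (unadjusted p = 0.0566, adjusted p = 0.958 in limma). The estimated difference was 1.25-fold, with an interval of 0.992 to 1.57.

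The probes of dnmt3ab differed from each other. Probes 690 and 2858 were at 0.42 ± 0.18 and 0.41 ± 0.18, with no overlap between the groups. Probe 1772 read 21599, 22967 and 19778 in controls and 21298, 22027 and 22305 in lead brains, so the groups overlapped and the change was 0.03 ± 0.14 (95% interval −0.31 to 0.37). A target named for the human genes DNMT3A, DTNB and DTNA together (ZV700S00003826, Zv7 chromosome 17, 36179379 to 36180124), looked up afterwards, was at −0.03 ± 0.12.

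The methyltransferase family was described by list, with the members dnmt3ba and dnmt3ab counted in it. Of the 8 genes listed, 7 were measured under a symbol, of which 4 were higher and 3 lower in lead brains, around a median of 0.15. Beside these members, dnmt3bb.3 and trdmt1 were higher, and dnmt3aa, dnmt3bb.1 and dnmt3bb.2 were lower. The median was 0.067 without lead replicate 2 and 0.23 without control replicate 2, and 6 of the 7 were higher without lead replicate 1. Only dnmt3ba reached an unadjusted p under 0.05. The paralog of dnmt3ab, dnmt3aa (NM_001018134, Zv7 chromosome 20, 47242229 to 47300868), was at −0.04 ± 0.22, with intensities from 4875 to 6912 in controls and from 4344 to 6622 in lead brains. One of its probes, numbered 46, read 13955, 4455 and 6912 in controls and 4208, 3816 and 3321 in lead brains, lower without overlap, while its other probes were at −0.05 and −0.01. Of the dnmt3bb cluster on chromosome 23, the target values of dnmt3bb.1 and dnmt3bb.2 lay below background on all arrays. One probe of dnmt3bb.1, numbered 252, was nevertheless above it on every array, reading 2889, 2610.1 and 3007 in controls and 2240, 3354 and 2994 in lead brains with overlapping groups. The brightest target of dnmt3bb.3 read 3296, 3467 and 3314 in controls and 4469, 3863 and 3723 in lead brains, a change of 0.25 ± 0.13 (unadjusted p = 0.0885 in limma), and its other targets lay below background on every array. The gene trdmt1, whose product methylates transfer RNA, was at 0.15 ± 0.15. A target that carries the human name DNMT2, an older name of that enzyme, among 7 homologue names lay below background.

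No target carried the symbol dnmt1, the maintenance enzyme. A target that the files pair with the human name DNMT1 and with a dnmt1 mapping marker (ZV700S00004338, Zv7 chromosome 3, 53511487 to 53527477) read 4549, 6387 and 5959 in controls and 6269.8, 8575 and 6879.8 in lead brains. Lead replicate 1 lay just below control replicate 2, so the groups overlapped. The change was 0.36 ± 0.19 (95% interval −0.08 to 0.81, unadjusted p = 0.0948, adjusted p = 0.958 in limma).

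The uhrf1 target (OTTDART00000017422, chromosome 22, 1607360 to 1638028) lay near the background line. Its intensities were 948, 924 and 797 in controls and 1327, 1193 and 1024 in lead brains. Control replicate 1 and lead replicates 1 and 2 were above the background line of their arrays, control replicate 1 with 948.3 against 948.2, and the other 3 were below it. Means were 890 ± 81.4 (SD, n = 3) and 1181 ± 152 (SD, n = 3), and the change was 0.41 ± 0.15 (unadjusted p = 0.0316, adjusted p = 0.958 in limma). The background line itself ranged from 948 to 1260 in controls and from 1090.3 to 1312 in lead brains.

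Only probe 960 of uhrf1 was above background on every array. It read 2657, 1966 and 2076 in controls and 3987, 3767 and 2510.3 in lead brains, with lead replicate 3 below control replicate 1. Its change was 0.60 ± 0.23 (unadjusted p = 0.0388 in limma). Probe 2543 was at 0.43 ± 0.22, with overlapping groups, and above background on the arrays of 2 lead brains and of no control. Probe 4266, with intensities of 104 to 152, lay far below background on all 6 arrays. It was the only uhrf1 probe with every lead brain above every control, and it is counted in the 8 of the 12 above. No uhrf1 probe with signal above background separated the groups. Targets that carry human names of the UHRF family were looked up afterwards and lay above background on every array with overlapping groups. One with UHRF1 among 6 homologue names (ZV700S00004709, Zv7 chromosome 7, 4171854 to 4172159) was at −0.25 ± 0.23, opposite in sign to the uhrf1 target, and one named UHRF2 (ENSDART00000098477) at −0.09 ± 0.25.

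Other genes of the maintenance machinery were listed with uhrf1. Of 10 listed, uhrf1 included, 6 were measured. All 6 were higher in lead brains (median 0.30), against 50.5% of all targets. An unadjusted p under 0.05 in limma was found for 3 of the 6, uhrf1 among them, against 2.57% of all targets in that direction. The others of the 3, beside uhrf1, were hells, which encodes a chromatin remodeler needed for DNA methylation, and cdca7a, which encodes a partner of that remodeler. Intensities of hells were 1610.5, 2399.8 and 1702 in controls and 3118, 3908 and 2863 in lead brains, all above background and without overlap. Its change was 0.80 ± 0.20 (unadjusted p = 0.00571, adjusted p = 0.958 in limma). For cdca7a the brighter of 2 targets was at 0.62 ± 0.21, with 1 of the 3 control arrays above background. Values of dmap1, which encodes a DNMT1-associated protein, and of pcna, the replication clamp, were at 0.17 ± 0.14 and 0.16 ± 0.13, with overlapping groups. The zinc finger gene zbtb24 lay below background throughout.

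The ezh2 target (OTTDART00000027208, chromosome 24, 11898834 to 11917753) read 2339, 2309 and 1674 in controls and 2819, 3255 and 2695 in lead brains, all above background. Control replicate 3 was the lowest of all 6 and lead replicate 2 the highest, with a gap of 0.20 log2 between the groups. Means were 2107 ± 376 (SD, n = 3) and 2923 ± 294 (SD, n = 3), a 1.40-fold difference with a 95% interval of 1.05 to 1.86. The change was 0.48 ± 0.18 (unadjusted p = 0.0283, adjusted p = 0.958 in limma).

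Of its probes, 1937 read 3815, 3577 and 2729.9 in controls and 5017, 5308 and 4587 in lead brains, a change of 0.57 ± 0.18. Probe 3149 was at 0.36 ± 0.15, also without overlap. Probe 214 lay below background on all 6 arrays, and its groups overlapped. Both ezh2 probes above background thus gave higher values in all lead brains than in any control.

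The genes of PRC2 were described by list, with the member ezh2 counted in it. Of 13 genes listed, 8 were measured. Of these, 7 were higher, ezh2 among them, against 50.5% of all targets, and the median was 0.13. The median was 0.20 without control replicate 1, where 5 of the 8 were higher, 0.22 without control replicate 2 and 0.22 without lead replicate 3. Only ezh2 itself reached an unadjusted p under 0.05. The alternative catalytic subunit ezh1 was at 0.18 ± 0.21. The core subunits suz12b, rbbp4 and rbbp7 were at 0.08 ± 0.18, −0.05 ± 0.17 and 0.07 ± 0.14, and the accessory subunit gene mtf2 at 0.06 ± 0.24. The accessory genes jarid2b and aebp2 were at 0.31 ± 0.14 and 0.26 ± 0.13, both with lead brains above all controls. A target that the files call suz12 (OTTDART00000024934, chromosome 3, 27282837 to 27298485), not paired with a current symbol and looked up afterwards, read 3873, 5398 and 4440.1 in controls and 5565, 7594 and 6709.6 in lead brains. Its change was 0.54 ± 0.18 (unadjusted p = 0.0220, adjusted p = 0.958 in limma). A second target with the same human homologue name, JJAZ1 (TC261858, Zv7 chromosome 6, 42718995 to 42720404), above background on every array, was at −0.14 ± 0.20 with overlapping groups. A target with the human name RBBP4 (BC052110.1) was at 0.13 ± 0.14. Both targets with the human name EED, another core subunit, overlapped between groups, at 0.17 ± 0.14 and 0.12 ± 0.17.

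**Figure D3:**
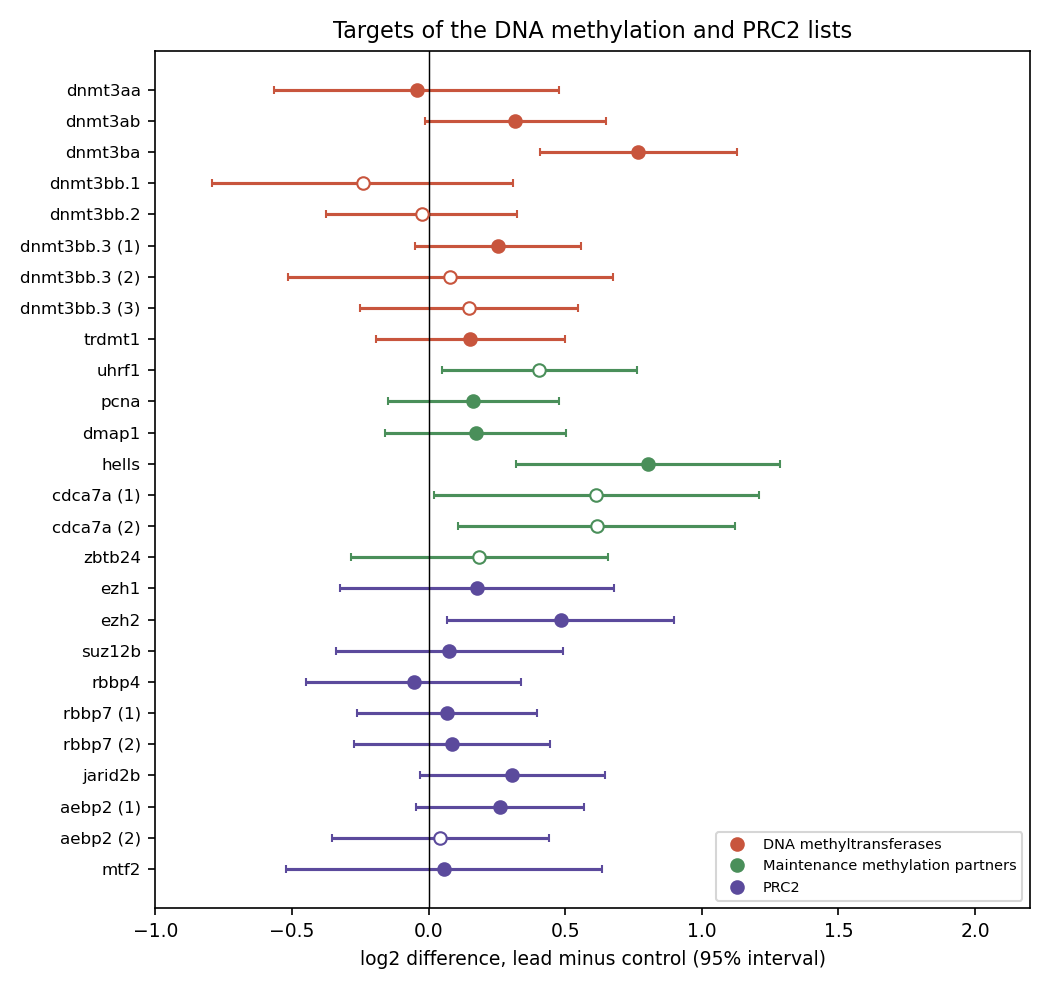
Change of every target under a symbol in the lists of DNA methyltransferases, maintenance partners and PRC2, lead minus control on the log2 scale (x axis) with 95% intervals from limma, 3 brains per group. Filled points lay above background on all 6 arrays; numbers in brackets count targets of one gene. The intervals of dnmt3ba, uhrf1, hells, both cdca7a targets and ezh2 lie above 0, and those of the other targets include 0.

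Whether a member differed more than a related gene was examined within arrays, for 3 pairs. In the first pair both genes are members, and they are counterparts of DNMT3B and DNMT3A. The change of dnmt3ba exceeded that of dnmt3ab by 0.45 ± 0.18 (exact permutation test, two-sided, p = 0.1, adjusted over the 3 pairs p = 0.3). The groups did not overlap, but log2 of dnmt3ba minus dnmt3ab was −2.46 in the lowest lead brain and −2.51 in the highest control. Changes differed by 0.36 ± 0.33 for dnmt3ab against dnmt3aa (exact permutation p = 0.5, adjusted p = 0.5) and by 0.31 ± 0.31 for ezh2 against ezh1 (exact permutation p = 0.4, adjusted p = 0.5), with overlapping groups. With 3 brains against 3 the smallest p that this test can give is 0.1, so none could pass.

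Genes that work next to the members were described by list. Over all targets, 50.5% were higher in lead brains, and 2.57% were higher at an unadjusted p under 0.05 in limma. Of the Polycomb complex 1 genes, 12 of the 13 measured were higher in lead brains (median 0.21), and 0 reached an unadjusted p under 0.05 in limma. Those with the smallest p were pcgf1 (0.29 ± 0.14), cbx8b (0.29 ± 0.14), phc2a (0.32 ± 0.16) and bmi1b (0.26 ± 0.14). The median was 0.12 without lead replicate 2 and 0.13 without control replicate 1, where 11 and 10 of the 13 were higher. The only measured demethylase of the PRC2 mark, kdm6bb, was at 0.07 ± 0.15, and at −0.015 without control replicate 2 and −0.0035 without lead replicate 2. Methyltransferases and binding proteins of heterochromatin had a median of 0.07 with 8 of the 8 measured higher, among them ehmt1a (0.21 ± 0.14), setdb1a (0.18 ± 0.13), cbx5 (0.18 ± 0.14) and setdb1b (0.08 ± 0.16), and none at an unadjusted p under 0.05. Without lead replicate 2 only 4 of these 8 were higher, and without control replicate 1 only 5, with medians of 2.4e-05 and 0.0091. The median was 0.15 without control replicate 3, 0.14 without lead replicate 1 and 0.10 without lead replicate 3.

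Genes of DNA demethylation were split, with 4 of the 8 measured higher, a median of 0.08 and 1 at an unadjusted p under 0.05, gadd45gb.1, which lay below background on all arrays. That median was 0.031 without control replicate 1, 0.13 without control replicate 2, 0.18 without control replicate 3, 0.15 without lead replicate 1 and 0.13 without lead replicate 3. The base excision repair gene apex1 was at 0.23 ± 0.12, and gadd45bb and gadd45ab, of a family linked to demethylation in mammals, were at −0.45 ± 0.22 and 0.37 ± 0.21. Among readers of methylated CpG, mbd3a was at 0.31 ± 0.14, mbd2 at 0.21 ± 0.17 and mbd3b at −0.08 ± 0.13. The methyl donor cycle, which supplies S-adenosylmethionine, had a median of 0.04. Of its 10 measured genes 8 were higher, against 50.5% of all targets, and 5 without lead replicate 1. Its median was 0.13 without control replicate 1, 0.11 without control replicate 2, 0.058 without lead replicate 2 and 0.076 without lead replicate 3. Its smallest p belonged to shmt1 (0.35 ± 0.16), mat2ab (0.61 ± 0.33), ahcy (0.36 ± 0.28) and ahcyl2a, which was below background. None of these readers and none of the donor genes had an unadjusted p under 0.05. In no list did a gene pass the adjusted threshold in limma.

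The list of DNA replication and mitosis genes was also higher in lead brains. Like the other lists, it was chosen with earlier results of these data known, so its direction is a description and not a test. Its gene pcna is also counted in the list of the maintenance machinery. Among 26 listed genes, 12 were measured. All 12 were higher in lead brains, against 50.5% of all targets, and the median was 0.50. An unadjusted p under 0.05 in limma was found for 7 of them, against 2.57% of all targets. Among these 7, ccnb1, kif23 and plk1 lay below background on every array, and only mcm3 and rrm2 lay above it on all 6. Over the list 4 lay above background on every array, with pcna at 0.16 and rrm1 at 0.32 among them, and 5 on none. With a brain left out the list median lay between 0.36 (without control replicate 3) and 0.54 (without lead replicate 3). Without control replicate 2, 11 of the 12 were higher, and likewise without lead replicate 2. Summed intensities of the 12 measured genes lay between 15679 and 18340.5 in the control group and between 20582 and 26010 in the lead group. The genes with the smallest p were ube2c (1.02 ± 0.18), ccna2 (0.64 ± 0.20), kif23, which was below background, and mcm3, a subunit of the replication helicase (0.47 ± 0.17). The part of dividing cells in the values of the members was not tested. In whole brains, more cells of a kind and more RNA per cell cannot be told apart.

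The members differed among themselves in which brains were high. Measured as the deviation of log2 intensity from the mean over 6 arrays, uhrf1 was highest in lead replicate 1 (0.38), then lead replicate 2 (0.23), with lead replicate 3 at 0.00. In dnmt3ba all lead brains lay close together (0.30, 0.49 and 0.35), and control replicate 2 (−0.14) stood above the other controls (−0.48 and −0.53). For ezh2 the low brain was control replicate 3 (−0.56), which was also the lowest control for each of the other members. The median deviation of the replication list followed the order of uhrf1 over the lead brains, at 0.40, 0.35 and 0.03, and was lowest in control replicate 3 (−0.41). It did not follow the order of the other members over the lead brains, where dnmt3ab was at 0.26, 0.04 and 0.18 and ezh2 at 0.19, 0.40 and 0.13. Over control replicates 1, 2 and 3 the list was at −0.08, −0.15 and −0.41. That order was shared by uhrf1 (−0.11, −0.14 and −0.36), dnmt3ab (−0.03, −0.13 and −0.32) and ezh2 (−0.07, −0.09 and −0.56), and not by dnmt3ba. These are orders of 3 values and were not tested. Red cell markers were at 0.79, 0.36 and 0.43 in controls and 0.30, −1.08 and −0.68 in lead brains. Their relation to the values of the members was not tested.

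**Figure D4:**
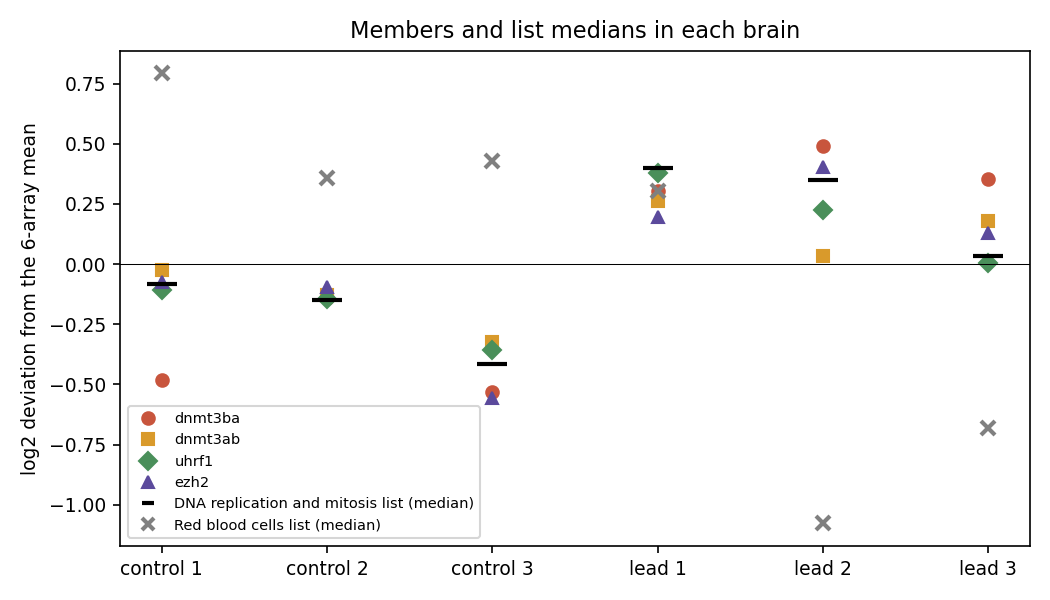
Deviation of log2 intensity from the 6-array mean (y axis) for the 4 members in each brain, with the median deviation of the replication and mitosis list (black bars) and of the red cell markers (grey crosses). Members and the replication list lie below 0 in every control and at or above 0 in every lead brain; red cell markers lie above 0 in the controls and in lead replicate 1.

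The genes with the most similar pattern were found by Euclidean distance between the deviations over the 6 brains, among 10410 named genes whose mean was above background. Nearest to uhrf1 were polr2c, an RNA polymerase II subunit gene (distance 0.0975), mcm3 (0.128), LOC567119, gkap1 and the splicing factor gene sf3b4. For dnmt3ab they were mybbp1a (0.0623), the heparan sulfate polymerase gene ext2 (0.110), ftsj1, zgc:136493 and tspan11. For ezh2 they were nelfb, of the negative elongation factor (0.152), zgc:153292, the DNA ligase gene lig3 (0.190), aytl2 and prdm9. For dnmt3ba they were si:dkeyp-10e10.3 (0.206), igf2r (0.247), LOC559304, CDR2 and XR_030128.1. Distances between members were larger, the smallest being 0.297 between uhrf1 and dnmt3ab and the largest 0.702 between dnmt3ba and dnmt3ab. Seen from ezh2, 92 genes were closer than uhrf1 and 610 closer than dnmt3ba. Seen from dnmt3ab, 5991 of 10409 genes were closer than dnmt3ba, and seen from uhrf1, 3446 of 10410. Fewer were closer in other pairs, with 73 of 10409 closer to dnmt3ba than ezh2 and 177 of 10410 closer to uhrf1 than dnmt3ab. The deviations were not scaled, so the size of a change enters the distance. The mean of uhrf1 was under the background filter, so uhrf1 was not itself among the 10410.

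Leaving out each brain in turn kept all 4 members higher in lead brains. The change of dnmt3ba lay between 0.69 and 0.89, with unadjusted p from 0.000861 to 0.00693 in limma. That of ezh2 lay between 0.33 and 0.57, the lowest without control replicate 3. That of uhrf1 lay between 0.32 and 0.50, the lowest without lead replicate 1, and that of dnmt3ab between 0.24 and 0.38, the lowest without control replicate 3. Without control replicate 1, the brain with pituitary transcripts, the values were 0.72, 0.57, 0.45 and 0.38 for dnmt3ba, ezh2, uhrf1 and dnmt3ab. No adjusted p was under 0.283 in any of these fits.

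**Figure D5:**
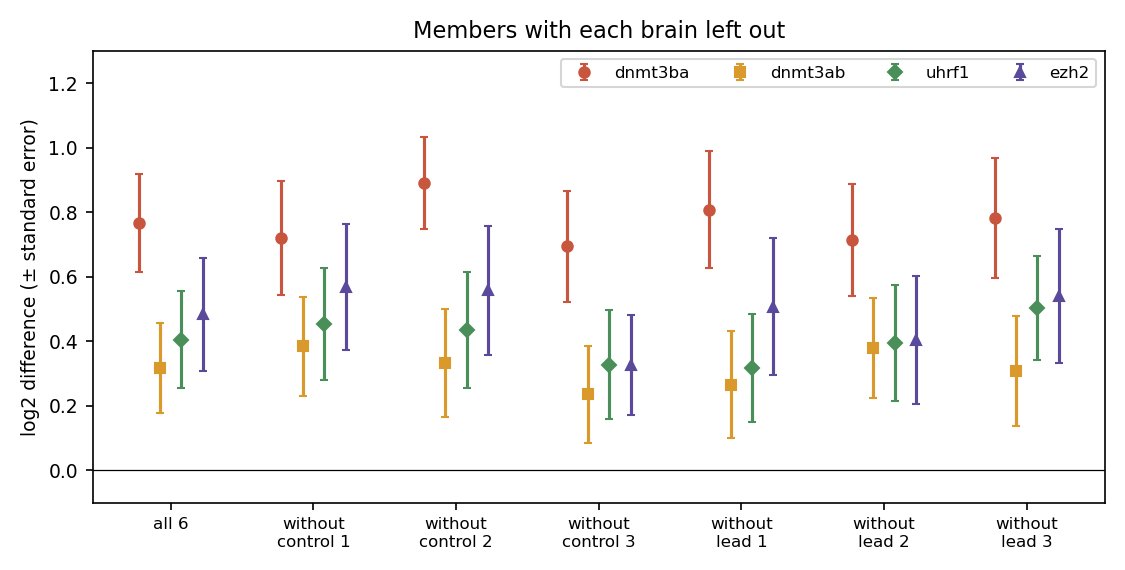
Change of each member, lead minus control on the log2 scale (y axis, with standard errors from limma), over all 6 brains and with each brain left out. All points lie above 0; dnmt3ba is the highest in each fit, and ezh2 is at 0.48 over all brains and at 0.33 without control replicate 3.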

How the data were processed

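Per the submitters' processing notes, the authors made the deposited target intensities with RMA, version not stated; values are linear. A second deposited table holds single probe intensities and 27114 random control probes. The authors deposited a signed fold score, a log2 ratio and a p-value for 94 altered targets, per the file headers, and beside each target an error score, which was not used. Log2 was taken with no filter or added constant, and the test of lead against control used limma 3.58.1 in R 4.3.3 (linear model, empirical Bayes, two-sided), Benjamini-Hochberg adjusted over all 38489 targets or 113549 probes, threshold 0.05. It was tested on simulated data first. Of 24 member values, 17 lay within 0.1 log2 of their middle probe. Symbols came from the files and, for 2663 of 3055 RefSeq targets, from the GRCz12tu table; coordinates are those of the files. Where a gene had several targets, the one with the highest mean stood for it.

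Members and lists were chosen with earlier results of these data known. Named were all member targets and probes, all measured methyltransferase and PRC2 genes, up to 4 genes with the smallest p per other list, and the 5 nearest in pattern per member. Targets known only by a homologue's name were added later. Alternatives covered the replicate block, left-out brains, normalization, centring, a filter on dim targets, moderation, the probe summary, an added constant of 100 and a stricter background line. Exact permutation tests used scipy 1.17.1, tables Python 3.11.15, pandas 2.3.3 and numpy 2.4.6, plots matplotlib 3.10.9. The number of arrays limits precision: the median SE of a change was 0.18. Each brain is 1 fish per the labels. No sequences were used here, so the planned promoter description was not made. The list of methyl-CpG readers is not reported here in full.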

Additional observations from a re-analysis of the deposited data

How the results depend on the processing

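Under each alternative run, the 4 members stayed higher in lead brains and short of the adjusted threshold; uhrf1 has no value where targets under the median intensity were left out. That filter put 1 target of all past the threshold, and single probes gave 0 to 1 past it when brains were left out; neither was a member. With a brain left out, probe 1772 of dnmt3ab ranged from −0.026 (without control replicate 3) to 0.082 (without control replicate 2). With the 99th percentile of the random probes as background, dnmt3ba lay above it on 2 arrays and uhrf1 on 0. The count of all targets at an unadjusted p under 0.05, 1696 in limma, was 1655 in the ordinary linear model, 978 with the filter on dim targets, and 1063 to 3098 with a brain left out, lowest without lead replicate 1 (1075 without control replicate 3) and highest without control replicate 2. For single probes it was 4861, and 2926 to 10073 with a brain left out; of the 12 member probes, 5 in the fit as reported and 3 without control replicate 3.

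In the labels same-numbered arrays share only a number, and whether they were paired is not stated. Their deviations from the group means correlated across targets at 0.31, 0.03 and −0.05 for numbers 1, 2 and 3. Between arrays of unlike number the correlation lay between −0.23 and 0.24. With the replicate number as a block in limma, dnmt3ba was at 0.77 (adjusted p = 0.850), and no target passed adjustment. An unadjusted p under 0.05 was found there for 8 of the 12 member probes and for 5816 of all 113549 single probes. Without the block these counts were 5 and 4861. Dim signal limits uhrf1 and the probes under background.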
